A study of Mus musculus with 12 samples.

Results

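MHC class I presentation genes were followed across normal mouse lung and mouse lung tumors. A list of 10 genes was taken by symbol, through the Ensembl identifiers of the table, and 9 of them had a row among the 30399 genes listed. Psmb10 was not analysed here. The 9 genes are the class I heavy chains H2-K1 and H2-D1, the peptide transporter subunits Tap1 and Tap2, the loading factor Tapbp, the immunoproteasome subunits Psmb8 and Psmb9, the aminopeptidase Erap1 and the transactivator Nlrc5. All 9 passed the filter on low values, which was a mean of at least 1 normalized read count.

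The series holds 12 samples, 5 of normal lung and 7 of tumor. The tumors come from a mouse model made by CRISPR/Cas9 mutagenesis without a virus. The labels give no strain, age, sex, targeted gene or cell of origin, so tissue is the only grouping, and the strain's H2 haplotype is not known. Tumors 3 and 4 share the number 159 in their titles and tumors 5, 6 and 7 share 201, so the 7 tumors carry 4 numbers, and p-values measure the spread between samples that may not all be independent animals. The titles of tumors 1 and 7 hold a word for trachea, and those of tumors 3, 4, 5 and 6 a word for lung.

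Class I molecules show peptides cut from a cell's own proteins to CD8+ T cells. Proteasomes cut the proteins, and in cells exposed to interferon gamma the subunits Psmb8, Psmb9 and Psmb10 replace constitutive ones. The Tap1 and Tap2 transporter carries peptides into the endoplasmic reticulum, Erap1 trims them there, and tapasin, the product of Tapbp, holds an empty heavy chain next to the transporter until a peptide fits. Nlrc5 is drawn to the promoters of class I heavy chain genes by factors bound at the X and Y boxes. Small cell lung carcinoma, a neuroendocrine tumor, is known for low class I on its cells.

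The promoters of 3 members are shown, the 2 heavy chains because they can be compared base by base, and Tap1 because its window is shared with Psmb9. They are the 250 bases before the annotated start, 5′ to 3′, from RefSeq on build GRCm38.p6, and capitals mark matches on either strand to 4 motifs. H2-K1 had 2 promoter entries, of which the first was used. The motifs, chosen after the sequences were seen, are the kappa B site, the interferon response core AGTGAAA, the X2 core TGACG and the Y box CCAAT. The 2 matches to the kappa B site in each heavy chain promoter overlap by all but 1 base.
H2-K1, chr17:34000348-34000597, minus strand: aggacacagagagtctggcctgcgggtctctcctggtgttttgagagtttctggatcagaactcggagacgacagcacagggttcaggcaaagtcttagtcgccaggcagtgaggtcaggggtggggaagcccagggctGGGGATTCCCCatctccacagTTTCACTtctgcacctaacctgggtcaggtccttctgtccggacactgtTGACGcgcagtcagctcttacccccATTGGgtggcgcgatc
H2-D1, chr17:35262844-35263093, plus strand: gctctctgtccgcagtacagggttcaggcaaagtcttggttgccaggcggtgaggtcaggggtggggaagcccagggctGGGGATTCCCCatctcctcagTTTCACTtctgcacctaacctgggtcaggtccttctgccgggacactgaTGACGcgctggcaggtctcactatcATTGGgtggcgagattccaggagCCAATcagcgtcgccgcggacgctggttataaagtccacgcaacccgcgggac
Tap1, chr17:34187306-34187555, plus strand: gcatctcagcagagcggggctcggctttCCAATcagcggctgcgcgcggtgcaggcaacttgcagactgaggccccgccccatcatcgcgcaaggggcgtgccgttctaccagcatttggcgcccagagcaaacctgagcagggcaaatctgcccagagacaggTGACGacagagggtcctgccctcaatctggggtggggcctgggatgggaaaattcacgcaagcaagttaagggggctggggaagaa

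The H2-K1 and H2-D1 windows each held all 4 motifs in the same order. Because the motifs were picked from these sequences, that they hold all 4 is a description and shows nothing particular to them. Over 32851 promoter windows of this length, a kappa B match was found in 3.44%, the interferon core in 3.70%, the X2 core in 17.8% and the Y box in 33.9%. Over 190 aligned bases the 2 heavy chain windows were 87.4% identical. The Tap1 window is also the start of Psmb9, which is read in the opposite direction, and 225 of its 250 bases lie in the Psmb9 window. Tap1 and Psmb9 held the X2 core and the Y box, more than 30 bases apart, and neither of the other motifs. Tapbp, called lower in tumor, held the Y box alone. Erap1, also called lower, and Psmb8 held none of the 4. A promoter entry was found for 7 of the 9 genes, and Tap2 and Nlrc5 had none. A match is a description of the letters, not of a bound factor.

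The tissue labels were set against marker lists before the members were read. Neuroendocrine markers (Chga, Syp, Insm1 and Elavl3) summed to 60.7 to 83.98 normalized read counts in normal lung and 24008 to 89343 in tumors. Lung epithelium markers summed to 214806 to 404466 in normal lung and 238 to 2441 in tumors, and endothelium markers to 54821 to 68035 and 701 to 4556. The 6 leukocyte markers (Ptprc, Cd53, Laptm5, Coro1a, Cd52 and Itgb2) summed to 10127 to 18976 in normal lung and 473 to 21854 in tumors. Tumor 7 stood apart, with the highest leukocyte sum of the 12 samples and a heart muscle marker sum of 24646, against 73.4 to 3078 in normal lung and 109 to 1503 in the other tumors. Results that rest on tumor 7 are therefore given with and without it, except the search for genes most like Nlrc5 and H2-K1. Depth ran from 11126432 to 17032234 recovered reads for normal lung, and tumors held 13093843 to 24217633.

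Of the 9 members, 4 were lower in tumor and 5 did not pass the test. The 4 were H2-K1, H2-D1, Tapbp and Erap1, at a limma adjusted p under 0.05. Lower calls made up 44.4% of the members and 30.1% of all 23674 genes tested, and no member was called higher, where 31.4% of all genes were. At an unadjusted p under 0.05, 0 members were higher and 5 lower in limma, and edgeR and DESeq2 also called 0 higher. The median log2 difference, tumor minus normal lung, was -1.23 over the members and 0.04 over all genes tested. In bulk tissue, fewer cells of a type and less RNA per cell cannot be told apart.

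**Figure D1:**
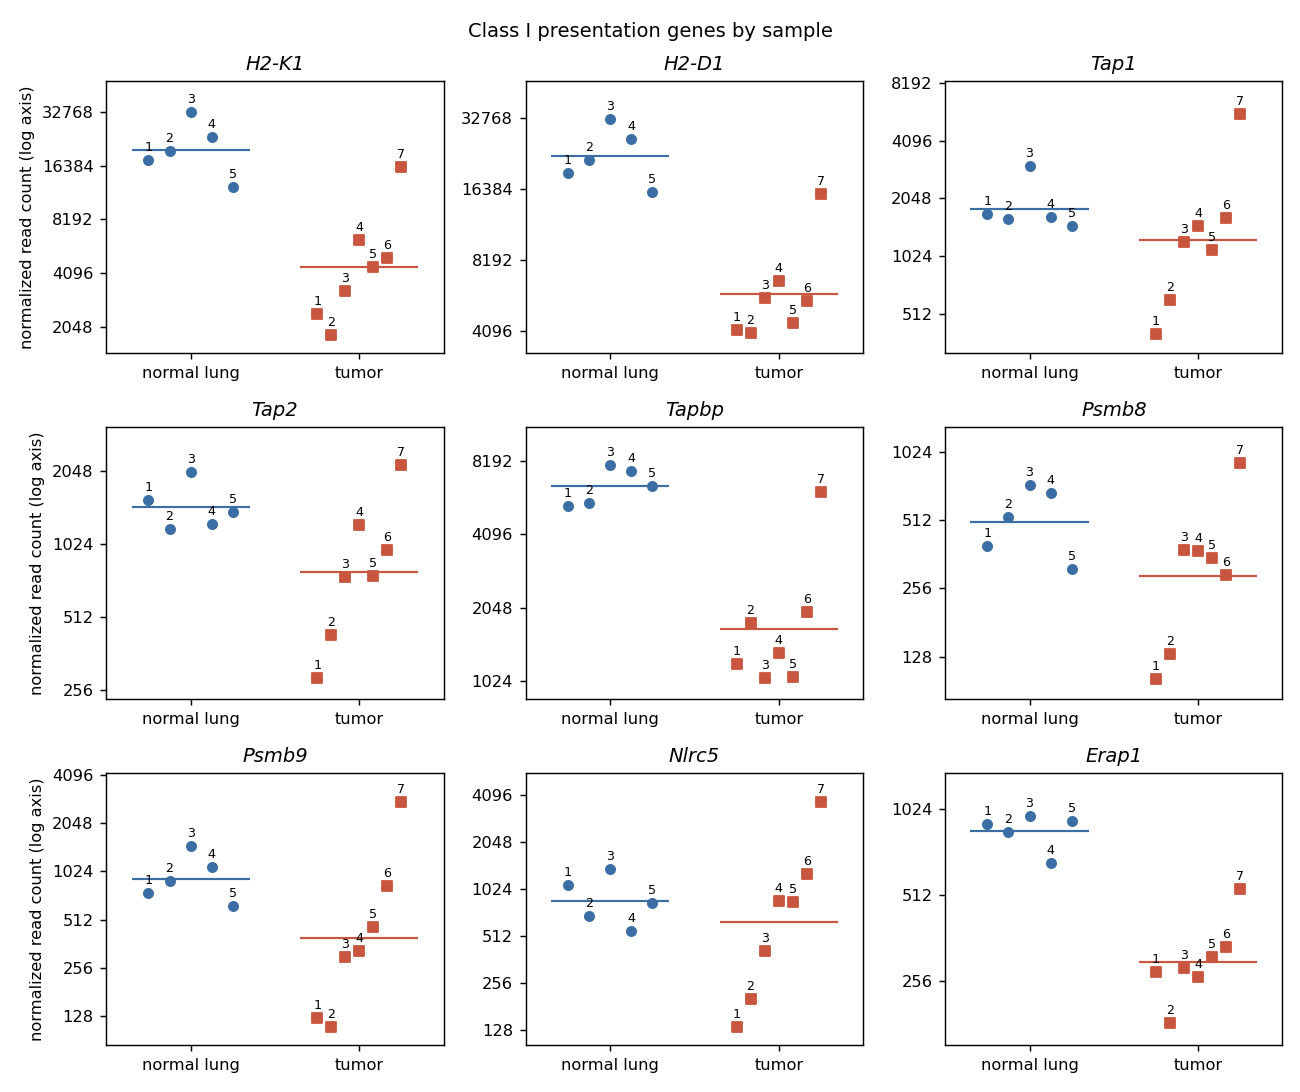
Normalized read count (vertical, log axis) of each of the 9 genes in 5 normal lungs (circles) and 7 tumors (squares), with sample numbers beside the points and the mean of the log values as a line. H2-D1 and Erap1 are the 2 genes whose tumor values all lie below all normal lung values, and tumor 7 is the highest tumor for every gene.

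The heavy chains form the peptide groove that a T cell receptor reads. H2-K1 (ENSMUSG00000061232) had 17618, 19885, 32652, 23671 and 12490 normalized read counts across normal lungs 1 to 5. In tumors 1 to 7 it had 2405, 1842, 3262, 6264, 4443, 4972 and 16057. Tumors 1 to 6 lay below every normal lung, and tumor 7 lay inside the normal range. The mean was 21263 ± 7544 (SD, n = 5) in normal lung and 5606 ± 4853 (SD, n = 7) in tumor. H2-K1 fell by 2.199 on the log2 scale (SE 0.44, limma adjusted p = 7.20e-04), and fell by 2.51 without tumor 7.

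H2-D1 (ENSMUSG00000073411), the other heavy chain measured among the members, had 19093, 21657, 32469, 26690 and 15890 normalized read counts across normal lungs 1 to 5. The tumors, 1 to 7, had 4142, 4011, 5641, 6677, 4420, 5489 and 15599. All 7 tumors lay below all 5 normal lungs, although tumor 7 missed the lowest normal lung by little. H2-D1 fell by 1.94 on the log2 scale (SE 0.31, limma adjusted p = 1.10e-04). Groups did not overlap for 2 of the 9 members, H2-D1 and Erap1, both lower in tumor, where 18.4% of all genes tested had tumors entirely below normal lung.

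H2-K1 and H2-D1 did not keep the same proportion in every tumor. The ratio of H2-K1 to H2-D1 normalized read counts was 0.923, 0.918, 1.01, 0.887 and 0.786 across normal lungs 1 to 5. It was 0.581, 0.459 and 0.578 in tumors 1, 2 and 3, and 0.938, 1.01, 0.906 and 1.03 in tumors 4 to 7. Tumors 1 to 3 lay below all normal lungs tumors 4 to 6 within the normal range and tumor 7 just above it, so tumors 3 and 4, which share a title number, fell on different sides. No test was run on this ratio, which was chosen with its values in view. Reads of H2 genes can be shared between copies, although of all 150-base windows of annotated transcripts 0% of those of H2-K1 and 1.35% of those of H2-D1, the latter shared with H2-Q1, occur unchanged in another gene. Whether a haplotype unlike the reference lowered either count was not tested.

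Tapbp (ENSMUSG00000024308) had 5362, 5547, 7911, 7516 and 6506 normalized read counts across normal lungs 1 to 5. Tumors 1 to 7 had 1194, 1761, 1045, 1328, 1054, 1958 and 6112. Tumors 1 to 6 lay in a narrow band far below normal lung, and tumor 7 lay within the normal range. Tapbp fell by 1.95 on the log2 scale (SE 0.37, limma adjusted p = 4.53e-04), and fell by 2.27 without tumor 7.

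Erap1 (ENSMUSG00000021583) had 904, 852, 969, 660 and 930 normalized read counts across normal lungs 1 to 5. Across tumors 1 to 7 it had 275, 183, 286, 264, 312, 336 and 539. Every tumor lay below every normal lung, and Erap1 varied least among tumors of the 9 genes, with a ratio of 2.94 between the highest and lowest tumor. It fell by 1.51 on the log2 scale (SE 0.22, limma adjusted p = 6.39e-05). In the annotation Erap1 overlaps Cast on the opposite strand, and because use of the strand is not given, its count is uncertain to that extent.

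The transporter genes did not pass the test over all 7 tumors. Tap1 (ENSMUSG00000037321) had 1692, 1598, 3023, 1645 and 1463 normalized read counts across normal lungs 1 to 5. Tumors 1 to 7 had 401, 606, 1221, 1464, 1110, 1628 and 5644. The groups overlapped, with 4 tumors below the normal range, 2 within it and tumor 7 above it. Its log2 difference was -0.55 (SE 0.50, limma adjusted p = 0.350) and -0.92 without tumor 7 (adjusted p = 0.0324). Its sign turned in edgeR on 11 samples, where the log2 difference was 0.047.

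Tap2 (ENSMUSG00000024339), whose product pairs with that of Tap1, had 1554, 1186, 2027, 1244 and 1392 normalized read counts across normal lungs 1 to 5. The tumors, 1 to 7, had 287, 434, 749, 1226, 759, 970 and 2168, of which 5 lay below the normal range and tumor 7 above it. Its log2 difference was -0.89 (SE 0.40, limma adjusted p = 0.0668), and -1.13 without tumor 7 (adjusted p = 0.00819). Tumor 7 had a ratio of Tap1 to Tap2 normalized read counts of 2.60, against 1.05 to 1.49 in normal lung and 1.19 to 1.68 in tumors 1 to 6.

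Psmb8 (ENSMUSG00000024338), which takes the place of Psmb5 in the immunoproteasome, had 392, 527, 733, 677 and 312 normalized read counts across normal lungs 1 to 5. Tumors 1 to 7 had 102, 131, 378, 375, 348, 294 and 913. Tumors 1, 2 and 6 were below the normal range, tumors 3 to 5 inside it and tumor 7 above it. The log2 difference was -0.78 (SE 0.46, limma adjusted p = 0.152), and -1.06 without tumor 7 (adjusted p = 0.0268).

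Psmb9 (ENSMUSG00000096727), which takes the place of Psmb6, varied more. It had 749, 887, 1468, 1092 and 621 normalized read counts across normal lungs 1 to 5. Across tumors 1 to 7 it had 124, 110, 297, 325, 463, 828 and 2755. Tumors 1 to 5 lay below the normal range, tumor 6 within it and tumor 7 above it, and the highest tumor was 25.1 times the lowest. The log2 difference was -1.23 (SE 0.65, limma adjusted p = 0.116), and -1.70 without tumor 7 (adjusted p = 0.00602).

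The spans of Tap1 and Psmb9 overlap each other on opposite strands, and those of Tap2 and Psmb8 overlap that of Gm20496, so reads of these genes cannot be fully told apart without strand. The constitutive partners had small differences that did not pass the test, with log2 differences of -0.29 for Psmb5 (SE 0.17, limma adjusted p = 0.154) and 0.37 for Psmb6 (SE 0.22, adjusted p = 0.166). The log2 ratio of Psmb9 to Psmb6 was 1.08 ± 0.39 for normal lung (SD, n = 5) and -0.53 ± 1.81 for tumor (SD, n = 7). Tumor minus normal lung gave -1.60, with an exact two-sided permutation p of 0.0846 (0.169 adjusted over 2 ratios). It was -2.09 without tumor 7, with an adjusted exact permutation p of 0.02165. The log2 ratio of Psmb8 to Psmb5 differed by -0.49 (exact permutation p = 0.321, adjusted 0.321). As plain ratios, Psmb9 to Psmb6 ran from 1.58 to 3.27 in normal lung, was 0.119 in tumor 2, the lowest, and 5.32 in tumor 7, the highest.

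Nlrc5 (ENSMUSG00000074151), the transactivator, spread over the widest range of the members. It had 1082, 683, 1365, 552 and 831 normalized read counts across normal lungs 1 to 5. Tumors 1 to 7 had 133, 201, 406, 850, 843, 1272 and 3686. Tumors 1 to 3 lay below the normal range, tumors 4 to 6 inside it and tumor 7 above it, and the highest tumor was 27.7 times the lowest. The log2 difference of -0.46 (SE 0.66, limma adjusted p = 0.5684) did not pass the test, nor did the -0.88 without tumor 7 (adjusted p = 0.158). In edgeR and DESeq2 on 11 samples its sign turned, to 0.47 and 0.39, also without a call. Its span overlaps 9330175E14Rik on the opposite strand.

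**Figure D2:**
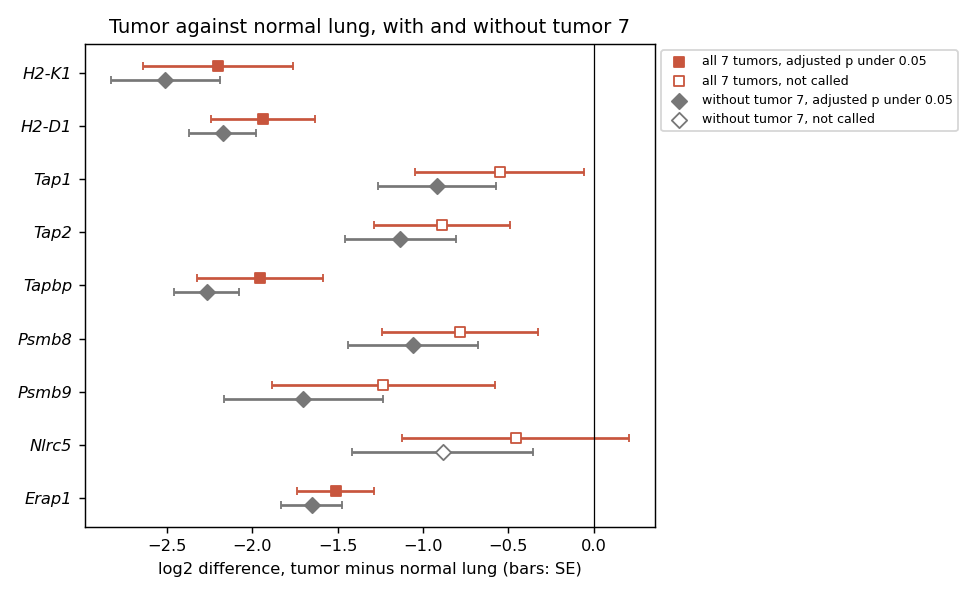
Log2 difference, tumor minus normal lung, of each gene with its standard error (horizontal), over all 7 tumors (squares) and without tumor 7 (diamonds), filled where the limma adjusted p is under 0.05. The calls go from 4 of 9 genes to 8 of 9 when tumor 7 is left out, and Nlrc5 is not called in either.

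Without tumor 7, limma called 8 of the 9 members lower, 88.9% of them, where 32.1% of all genes tested were called lower. The 4 genes called over all tumors were among the 8, with Tap1, Tap2, Psmb8 and Psmb9 added. The same 8 genes were called without tumors 6 and 7, and without the trachea-titled tumors 1 and 7. H2-K1, H2-D1, Tapbp and Erap1 were called lower under each of the 25 alternatives computed, edgeR and DESeq2 on whole reads among them. Lower calls over all genes were 32% without the trachea-titled tumors (32.1% higher), and 32.1% without tumors 6 and 7 (31.6% higher). Averaging tumors of one title number gave 7 lower members, with 30% of all genes lower and 29.8% higher, and a Y-linked covariate gave 8, with 24.3% and 24.8%. The members lower stayed at 4 with equal column totals (25.8% of all genes lower, 36.4% higher), with tumors of one number correlated (29%, 29.9%), with a log2 difference of at least 1 (24.5%, 24%), in edgeR (26.3%, 34.9%) and in DESeq2 (26.1%, 32.3%). Without tumor 7, 32.6% of all genes were higher. Nlrc5 was called under none of the 25, with adjusted p values from 0.0545 to 0.907.

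Taken one at a time, the tumors differed in how many of the 9 genes were low. All 9 genes lay below the normal range in tumors 1 and 2, 8 in tumor 3, 5 in tumor 4, 7 in tumor 5 and 6 in tumor 6. In tumor 7, 2 genes were below it, 2 within it and 5 above it. The median over the 9 genes of the log2 difference from the normal lung mean was -2.44, -2.08, -1.58, -1.50, -0.99 and -0.77 in tumors 1 to 6, and 0.58 in tumor 7.

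In tumors 4 to 7 the members did not move as one block. Nlrc5 was at -0.01, -0.02, 0.57 and 2.10 log2 units from the normal lung mean in tumors 4 to 7. In the same tumors H2-K1 was at -1.69, -2.19, -2.02 and -0.33, and Erap1 at -1.69, -1.45, -1.34 and -0.67. Thus tumors 4, 5 and 6 had normal lung levels of the transactivator beside heavy chain levels below every normal lung. Tumor 7 had Nlrc5, Tap1, Tap2, Psmb8 and Psmb9 above every normal lung, and H2-D1 and Erap1 below every normal lung. The tumors that share number 201 spanned much of this range, with Tap1 at 1110, 1628 and 5644 in tumors 5, 6 and 7.

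**Figure D3:**
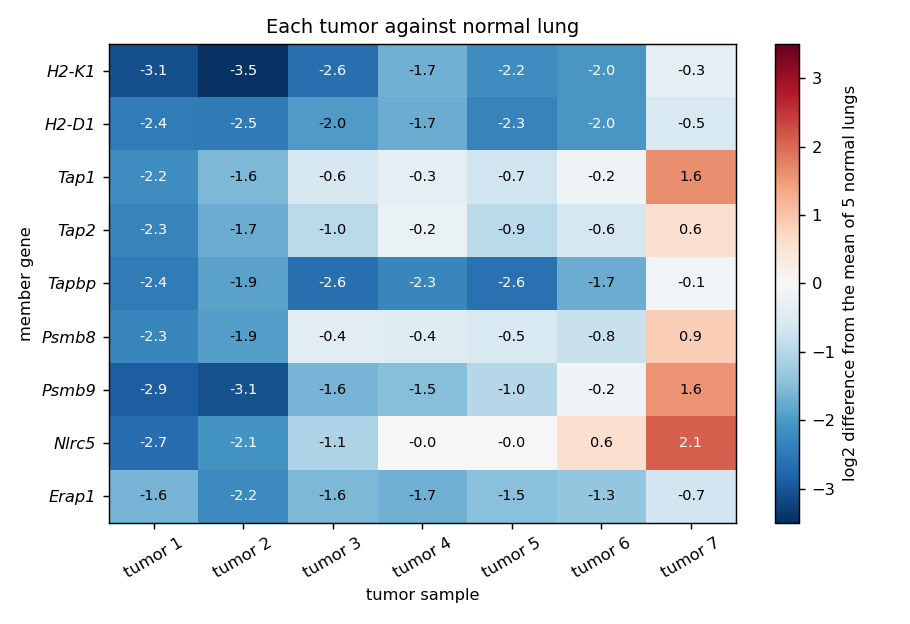
Log2 difference of each tumor (columns) from the mean of the 5 normal lungs for each of the 9 genes (rows), with blue below and red above the normal mean. Tumors 1 and 2 are low for all genes, and tumor 7 is high for Nlrc5, Tap1, Psmb9, Psmb8 and Tap2 and lower for H2-D1 and Erap1.

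The sum of the 6 markers of leukocytes, which carry high class I, was below every normal lung in tumors 1 to 6 and above in tumor 7. Single markers did not all follow. Cd52 was at 1038 in tumor 6 against 571 to 1968 in normal lung, and Itgb2 at 2589 in tumor 7 against 1854 to 3774. The summed leukocyte markers were 818, 1246, 473, 1442, 1846, 5611 and 21854 in tumors 1 to 7. The 8 T and NK cell markers (Cd3e, Cd3g, Cd8a, Cd8b1, Trac, Nkg7, Gzmb and Klrd1) summed to 16.5, 16.7, 30.7, 35.9, 171, 648 and 2567 in tumors 1 to 7, against 986 to 1772 in normal lung. Cd3e was listed at 0 in tumors 1, 2 and 3, where Ptprc, the pan-leukocyte gene, was at 56.3, 83.4 and 7.93. The 5 macrophage markers (Csf1r, Cd68, Adgre1, Marco and Mrc1) summed to 281 to 4618 in tumors and 4269 to 7339 in normal lung, and the 3 B cell markers found to 28.8 to 463 and 1615 to 4033.

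The order of the tumors by leukocyte level was in part the order by class I level. Tumors 1, 2 and 3 had the lowest leukocyte sums and the lowest H2-K1 and Nlrc5 values, and tumor 7 had the highest of each. The T and NK cell sums rose from tumor 1 to tumor 7, as did Nlrc5 except between tumors 4 and 5. Of the 8 T and NK cell markers, 3, 7, 6 and 4 were at or under 3 reads in tumors 1 to 4. The order of those 4 sums is therefore uncertain. In tumors 5 and 6 Cd8a alone gave 100 and 489 of the sums of 171 and 648. Cd3e was at 4.85 and 16.2 there, against 138 to 266 in normal lung. Other tumors changed places. Tumor 3 had the lowest leukocyte sum of all samples, with 3262 normalized read counts of H2-K1 and 1221 of Tap1. Tumors 1 and 2 had higher leukocyte sums, lower T and NK cell sums and fewer counts of both genes. Tumor 6 had a leukocyte sum of 5611 and 4972 normalized read counts of H2-K1, fewer than tumor 4, where the sum was 1442. In tumor 7 the leukocyte sum lay above every normal lung and H2-D1 below every normal lung. The part of endothelial, epithelial and leukocyte content in the lower heavy chain levels was not tested.

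**Figure D4:**
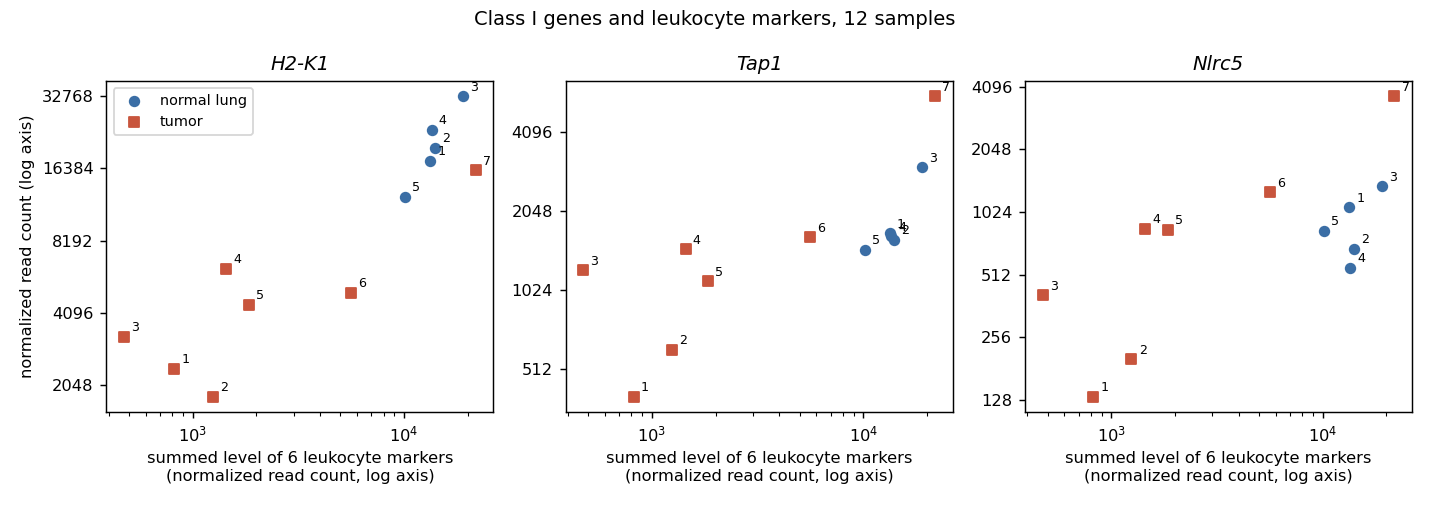
Normalized read count of H2-K1, Tap1 and Nlrc5 (vertical, log axis) against the summed level of 6 leukocyte markers (horizontal, log axis) in 5 normal lungs (circles) and 7 tumors (squares), with sample numbers. Tumor 3 lies farthest left without being lowest for any of the 3 genes, and tumor 7 lies farthest right.

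Per kilobase of annotated exon, the heavy chains were the highest of the members in both tissues. In normal lung H2-D1 had a mean of 8980 normalized read counts per kilobase and H2-K1 7237, and their ranges overlapped. Tapbp followed at 1810, with a range that met neither neighbour. Tap2 (392), Tap1 (344) and Psmb9 (263) had overlapping ranges, as had Psmb9 and Psmb8 (156), and Psmb8, Erap1 (119) and Nlrc5 (106). In tumors H2-D1 averaged 2547 and H2-K1 1908 per kilobase, and Erap1 was the lowest at 43.1, with Nlrc5 at 124 and a tumor range of 15.7 to 434. These are levels, set side by side only after division by exon length.

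Over the 36 pairs of members, Pearson correlations of log2(value + 1) across the 7 tumors ran from 0.564 to 0.972, with a median of 0.892. The points share tumors, depth and, in part, title numbers, so these are descriptions. Without tumor 7, a comparison chosen after seeing the data, the 8 pairs that include Tapbp ran from -0.26 to 0.15, with 4 below 0. The other 28 pairs ran from 0.396 to 0.975 over the 6 tumors, with a median of 0.812. The common pattern of Tapbp with the other members therefore rested on tumor 7. The genes outside the class I lists whose pattern over the 7 tumors was most like that of Nlrc5, among 16465 genes compared, were Gucy1a1 (r = 0.994), Atp10d (0.994), Emp1 (0.989), Gm31718 (0.986) and Sgcd (0.983). For H2-K1 they were Tmem51os1 (0.993), Tgfb1i1 (0.992), Sptbn5 (0.984), Tbx21 (0.982) and Sh2d2a (0.981). These are the highest values among 16465 genes over 7 tumors, were not computed without tumor 7, and are descriptions. Tbx21, the T-bet factor of T and NK cells, had 8.34 to 48.5 normalized read counts in tumors 1 to 6 and 243 in tumor 7. Sgcd had 46.8 to 876 in tumors 1 to 6 and 2324 in tumor 7, against 344 to 551 in normal lung. Gucy1a1 had 60.1 to 387 and 868, against 2520 to 5301 in normal lung.

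The rest of the class I pathway and its possible regulators, 3 PRC2 core genes among them, were read from 7 lists, of which 47 genes were found and tested. The lists were chosen with earlier results of these data known, so their shares are descriptions. In limma 22 were lower in tumor (46.8%), 11 higher (23.4%) and 14 not called, beside 30.1% and 31.4% of all genes tested. The median log2 difference over the 47 genes was -0.48. Without tumor 7, 25 were lower (53.2%, beside 32.1% of all genes) and 11 higher. Tumors lay entirely below normal lung for 8 of the 47 genes and entirely above for 8, beside 18.4% and 20.1% of all genes tested. In edgeR on 11 samples 12 were lower and 12 higher of 44 tested, where 26.3% of all genes were lower and 34.9% higher. With equal column totals 16 were lower and 14 higher.

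**Figure D5:**
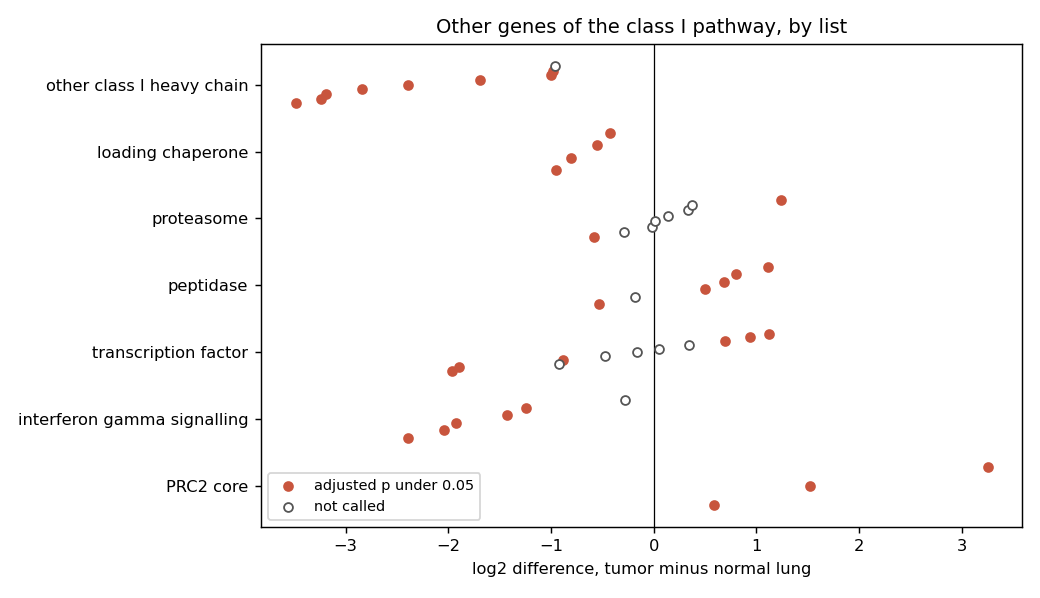
Log2 difference, tumor minus normal lung (horizontal), of 47 other genes of the class I pathway and its possible regulators in 7 lists (rows), filled where the limma adjusted p is under 0.05. Heavy chain, chaperone and interferon gamma genes lie left of 0, and the 3 PRC2 genes lie right of it.

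Of the 9 other class I heavy chain genes, 8 were lower in tumor, beside 30.1% of all genes tested. The other, H2-Q7, was not called (log2 difference -0.96, limma adjusted p = 0.139). With equal column totals 6 of the 9 were called lower, and 7 with quantile normalization. On whole reads of 11 samples, edgeR called 1 of 7 tested lower and DESeq2 5 of 8. H2-Q1 and H2-T3, both called in limma, had low values in normal lung, 4.23 to 22.6 and 4.23 to 11.3, close to the value of 3 reads. H2-Q10 went from 156 ± 34.97 normalized read counts for normal lung (SD, n = 5) to 16.1 ± 11.4 for tumor (SD, n = 7), a log2 difference of -3.49 (SE 0.50, limma adjusted p = 4.39e-05). H2-M3, which presents formylated peptides, had a log2 difference of -1.69 (adjusted p = 0.00807). H2-Q4, the most abundant of the list per kilobase, had the smallest called difference, -0.98 (adjusted p = 0.0436), and lost its call in 15 of 25 alternatives. Reads can be shared among these copies, so their counts are uncertain.

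The listed loading chaperones, not all of them parts of the loading complex, were called lower in 4 of 4 cases, beside 30.1% of all genes tested. With equal column totals or quantile normalization 2 of 4, Calr and Pdia3, were called lower, beside 25.8% and 29.5% of all genes. Calreticulin (Calr) differed by -0.95 (SE 0.24, limma adjusted p = 0.00321), the disulfide isomerase Pdia3 by -0.81 (SE 0.15, adjusted p = 3.89e-04), Hspa5 by -0.55 and calnexin (Canx) by -0.43 log2 units. With equal column totals the adjusted p was 0.0681 for Hspa5 and 0.0917 for Canx. Pdia3 had 4067 ± 652 normalized read counts for normal lung (SD, n = 5) and 2326 ± 413 for tumor (SD, n = 7), and every tumor lay below every normal lung.

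Proteasome genes of the list were mostly not called, with 6 of 8 outside the threshold. Psme4, the PA200 activator, was higher in tumor, from 949 ± 150 normalized read counts (SD, n = 5) to 2333 ± 741 (SD, n = 7), a log2 difference of 1.24 (SE 0.22, limma adjusted p = 2.56e-04). Pomp, the assembly factor, was lower by -0.58 log2 units (adjusted p = 0.0471), a call lost in 16 of 25 alternatives.

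Of 6 peptidases, 4 were higher and 1 lower in tumor, beside 31.4% and 30.1% of all genes tested. Npepps, the puromycin-sensitive aminopeptidase, rose from 1549 ± 131 normalized read counts (SD, n = 5) to 3371 ± 362 (SD, n = 7), a log2 difference of 1.12 (SE 0.12, limma adjusted p = 2.58e-06). Thop1, which degrades cytosolic peptides, rose by 0.80 (adjusted p = 0.00144), Blmh by 0.68 and Tpp2 by 0.51. Lnpep, the relative of Erap1 that trims peptides in endosomes, fell by 0.53 (adjusted p = 0.0203). Its call was lost with equal column totals (limma adjusted p = 0.144) and with quantile normalization (limma adjusted p = 0.0815). It was also lost with the Y-linked covariate, in edgeR and in DESeq2. Tumor 7, at 3670 normalized read counts of Lnpep, lay above the highest normal lung at 3151. For Npepps and Thop1 all 7 tumors lay above all normal lungs, the opposite side from Erap1.

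Transcription factors of class I genes went both ways, with 3 higher, 3 lower and 5 not called of 11. All genes tested were higher in 31.4% and lower in 30.1% of cases. Without tumor 7, 5 of the 11 were lower, beside 32.1% of all genes. The X and Y box factors Rfxap (0.94, limma adjusted p = 0.00213), Rfx5 (0.69, adjusted p = 0.00736) and Nfyb (1.12, adjusted p = 1.88e-04) were higher in tumor by these log2 differences. Rfxank (-0.48), Nfya (0.35), Nfyc (0.05) and Creb1 (-0.16) were not called. Without tumor 7, Rfxank was called lower (-0.62, limma adjusted p = 0.0229). Irf1, an interferon factor, fell by 1.96 (SE 0.25, adjusted p = 1.71e-05), from 2793 ± 556 normalized read counts (SD, n = 5) to 750 ± 301 (SD, n = 7). The kappa B factor gene Nfkb1 fell by 1.90 (adjusted p = 5.90e-04) and Rela by 0.89 (adjusted p = 3.44e-04). Irf2 did not pass the test (-0.92, adjusted p = 0.0532), but did without tumor 7 (-1.07, adjusted p = 0.0236). For Irf1, Nfkb1 and Rela every tumor, tumor 7 included, lay below every normal lung.

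Genes of interferon gamma signalling were lower in 5 of 6 cases, and in 6 of 6 without tumor 7, beside 30.1% and 32.1% of all genes tested. In edgeR 4 of 5 tested were lower, beside 26.3% of all genes. Over all tumors Jak2 was not called (log2 difference -0.28, limma adjusted p = 0.478). It had 2438 normalized read counts in tumor 7, against 872 to 1127 in normal lung. The receptor chains Ifngr1 and Ifngr2 had log2 differences of -2.04 and -1.92 (limma adjusted p = 5.59e-04 and 5.86e-04). The kinase Jak1 was at -1.43 (adjusted p = 1.77e-05) and the feedback inhibitor Socs1 at -1.246 (adjusted p = 0.00818). Ifng, made by T and NK cells, was also lower (-2.39, adjusted p = 0.00585), at 12.7 ± 9.88 normalized read counts for normal lung (SD, n = 5) and 0 to 8.33 in tumors, close to the value of 3 reads.

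The PRC2 core, a repressive histone methyltransferase that is known to act on class I genes in some tumors, was higher in 3 of 3 genes. Of all genes tested, 31.4% were higher. With the Y-linked covariate, or a log2 difference of at least 1, 2 of 3 were higher, beside 24.8% and 24% of all genes. Whether PRC2 acts on class I genes in these tumors was not tested. Ezh2, its catalytic subunit, rose by 3.26 on the log2 scale (SE 0.26, limma adjusted p = 1.85e-07), from 173 ± 43.5 normalized read counts (SD, n = 5) to 1717 ± 577 (SD, n = 7). Suz12 rose by 1.52 (adjusted p = 7.24e-07) and Eed by 0.59 (adjusted p = 0.00197).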

How the data were processed

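Poly-A RNA of 5 normal lungs and 7 tumors was measured, and groups were taken from the tissue label. The authors deposited a normalized count signal for each gene, that is, read counts over 1 size factor per sample. The submitters' processing notes name featureCounts, DESeq2 and build GRCm39. The aligner, annotation and use of strand are not given in the sources used here. In each column 100% of values above 0 were whole multiples of 1 step (tolerance 0.001 reads), and whole reads were recovered for 11 samples. For tumor 3, whose step lies close to 1, recovered reads were used for depth only. At most 4.85 normalized counts correspond to 3 reads. None of the 25 same-group pairs checked agreed within sampling noise.

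GENCODE M21 named 29982 identifiers, gave exon lengths and overlaps on another build, and its coordinates are not printed. Genes averaging 1 or more (23674) entered, as log2(value + 1), a fit with limma 3.58.1 (R 4.3.3), with a mean-variance trend and Benjamini-Hochberg adjustment over all genes. Calls are at an adjusted p under 0.05. Log2 differences on this scale understate the change of low genes. Subunit ratios were compared by exact permutation over 792 splits, whose smallest p is 0.001263. The plan had 3 ratios, and 2 could be formed. Alternatives included edgeR 4.0.16 and DESeq2 1.42.0 on whole reads. Tests were tested on simulated data. Named genes are the members, examples from the 7 pathway lists chosen by size or role, and the 5 genes most correlated with Nlrc5 and H2-K1 at a mean log2 value of at least 4. Members and lists were chosen with earlier results of these data known. Absent genes were not analysed here, and some genes of the marker and pathway lists are not reported here.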

Additional observations from a re-analysis of the deposited data

Results flagged for a closer look

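Values of 45 genes and ratios were set against Dixon's 95% limit in 5 normal lungs and 7 tumors, 90 comparisons in all, of which 7 had 1 sample apart from the rest and chance gives about 4.5 (1 in 20). Tumor 7 was the sample apart for 3, all on the high side and on the log2(value + 1) scale. H2-D1 was at 13.93 there against 12.71 in the next tumor, Tapbp at 12.58 against 10.94, and Lnpep at 11.84 against 11.04.

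The class I gene H2-Q2 was at 8.10 in tumor 1 against 3.42 in the next tumor, or 273 normalized read counts, above the normal lung mean of 122 ± 13.2 (SD, n = 5), while the other 6 tumors were far below it. In tumor 1 all 9 members were below normal lung. In normal lung 3, Tap1 was at 11.56 against 10.73 in the next sample. The interferon regulatory factor Irf2 was lowest in tumor 2, at 8.32 against 9.99, and Rela was lowest in normal lung 2, at 10.95 against 11.17.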

How the results depend on the processing

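Of the 9 members, 4 were called lower with all tumors. The count was 7 with tumors of one title number averaged, 8 without the trachea-titled tumors, 8 without tumors 6 and 7, 8 after adding Y-linked expression as covariate, and 4 to 8 when each sample was left out in turn, the 8 being without tumor 7. Tap1 had a log2 difference of 0.047 and Nlrc5 of 0.47 in edgeR, and Nlrc5 of 0.39 in DESeq2, so their sign turned. Both count tests used 11 samples that lack tumor 3. Of the 25 alternatives, the sign turned in 1 for Tap1 and in 2 for Nlrc5, and limma without tumor 3 was not among them. The cause was not tested. Of the 47 genes of the 7 lists, 5 were higher and 14 lower with a log2 difference of at least 1, because that rule is stricter, and 12 were lower in edgeR. The log2 ratio of Psmb9 to Psmb6 ran from -2.09 to -1.18 when each sample was left out in turn, and passed the test without tumor 7 (-2.09), without the trachea-titled tumors (-1.91) and without tumors 6 and 7 (-2.47). Equal totals moved the median of all genes from 0.04 to 0.24, and edgeR to 0.14, while the members' median was -1.03 and -0.51. With equal totals 36.4% of genes were called higher and 25.8% lower, beside 31.4% and 30.1%. No paired analysis was possible because the labels give the groups no shared replicate numbers. With a correlation between tumors of one number (0.304) the same 4 members were called.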
